A study of Mus musculus with 12 samples.

Results

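The FOS and JUN genes encode the subunits of the transcription factor AP-1. The count table of naïve CD8+ T cells was searched for the 7 symbols Fos, Fosb, Fosl1, Fosl2, Jun, Junb and Jund, and each was found once among its 14323 genes. The cells were sorted by surface staining as naïve TCRβ+CD8+ cells from the spleens of 3 wild type mice, whose age, sex and strain the labels do not give. Each mouse gave 1 well of 100000 cells to each of 4 conditions, so that there were 12 libraries. The unstimulated isotype group received isotype antibodies only. The unstimulated anti-LAIR-1 group received isotype in place of anti-CD3 and 2.5 µg/ml of the anti-LAIR-1 antibody 2C7. The anti-CD3 isotype group received 2.5 µg/ml of the anti-CD3ε antibody 145-2C11 with 2.5 µg/ml isotype. The anti-CD3 anti-LAIR-1 group received both active antibodies at 2.5 µg/ml each. All antibodies were immobilised on the plate, no costimulatory antibody is listed for any group, and RNA was taken at 6 h.

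AP-1 is a dimer of proteins that hold each other through a leucine zipper and touch DNA with the basic region beside it. FOS proteins (c-Fos, FosB, Fra-1 and Fra-2) need a JUN partner, whereas JUN proteins (c-Jun, JunB and JunD) can also pair with each other. In T cells, the T cell receptor drives these genes through MAP kinases, and AP-1 binds together with NFAT at the regulatory DNA of cytokine genes. LAIR-1 is an inhibitory receptor for collagen, and the comparisons asked how its ligation changed the response of naïve CD8+ T cells to anti-CD3.

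The libraries held 1781218 to 7725545 reads counted on genes, of which 1108 to 6312 fell on the 7 members. Levels are given in CPM, the reads of a gene scaled to the size of its library after TMM normalization. A count of 3 reads stood for 0.388 to 1.68 CPM, depending on the library. Mitochondrial genes took 17.6 to 20.9% of the reads in the 6 unstimulated libraries and 11.5 to 13.2% in the 6 libraries with anti-CD3. Markers of naïve CD8+ T cells (Cd3e, Cd8a, Cd8b1, Ccr7 and Lef1) summed to 2979 to 3380.1 CPM without anti-CD3. With anti-CD3 they summed to 1135 to 1259 CPM in the isotype libraries and 1367 to 1533 CPM in the anti-LAIR-1 libraries. Summed B cell markers stayed at 9.69 CPM or below, and those of CD4 T cells at 4.84 CPM or below. Of the myeloid list, Csf1r, Itgam and Cd14 summed to at most 1.63 CPM, and of the NK cell list Klrb1c and Klre1 summed to at most 1.06 CPM. In RNA from whole wells, fewer cells that express a gene and less RNA of that gene per cell cannot be told apart.

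The DNA before the start sites of Fos, Junb and Jun is shown first. They were picked after their profiles over the libraries were seen, where Fos and Junb were similar and Jun was not. The windows are the 250 bases upstream of the RefSeq start on GRCm38.p6, written 5′ to 3′ on the gene's own strand. They lie at chr12:85473640-85473889 (plus strand) for Fos, at chr8:84978749-84978998 (minus strand) for Junb and at chr4:95052223-95052472 (minus strand) for Jun. Capitals mark TGACG, the core of a cAMP response element (CRE), and TGACATCA, known as a site of the Jun promoter that c-Jun binds with ATF-2.
Fos: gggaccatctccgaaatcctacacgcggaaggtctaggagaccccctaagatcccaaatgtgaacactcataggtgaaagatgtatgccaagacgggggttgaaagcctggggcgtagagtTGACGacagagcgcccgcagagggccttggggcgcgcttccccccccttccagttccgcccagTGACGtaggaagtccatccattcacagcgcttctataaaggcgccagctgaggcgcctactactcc
Junb: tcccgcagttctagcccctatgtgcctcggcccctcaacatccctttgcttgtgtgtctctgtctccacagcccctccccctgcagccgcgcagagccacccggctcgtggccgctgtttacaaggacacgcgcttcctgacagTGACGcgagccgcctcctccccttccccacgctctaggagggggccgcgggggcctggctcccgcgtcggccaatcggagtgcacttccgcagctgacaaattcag
Jun: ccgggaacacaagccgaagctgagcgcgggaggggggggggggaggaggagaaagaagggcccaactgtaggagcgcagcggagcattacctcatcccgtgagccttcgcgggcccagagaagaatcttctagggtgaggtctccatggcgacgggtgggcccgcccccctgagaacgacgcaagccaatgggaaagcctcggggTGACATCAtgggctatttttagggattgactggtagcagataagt

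Windows of this kind were matched for 6 of the 7 members, and Fosl1 had no entry. Those of Fosl2 and Jund are not printed, because their RefSeq and GENCODE starts lie furthest apart. The 2 starts also differ, by fewer bases, for Junb and Fosb, and all distances are from the RefSeq start. TGACG was found on either strand in 17.8% of all 32851 windows of that length. Fos held it 2 times, beginning 129 and 66 bases before the start. Junb held it once, 106 bases before the start, and Fosb once, 60 bases before the start. It was absent from the windows of Jun, Jund and Fosl2, although the profile of Fosl2 was also similar to that of Junb. TGACATCA was found in 2.93% of all windows and, among the members, in that of Jun, from 45 to 38 bases before the start. Neither TGACTCA (in 4.46% of all windows), nor TGACGTCA (1.55%, a longer form of TGACG), nor the CArG box (1.47%), nor CCGGAA (12%) was found in these 6 windows. DNA further upstream was not searched, so that such sites may still lie beyond the windows, the CArG box of Fos among them. GGAAA, the core read by NFAT, was in 55.6% of all windows and in that of Jun alone among the 6. These are matches of letters in a window, and binding was not measured. Any part of them in the profiles was not tested.

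**Figure D1:**
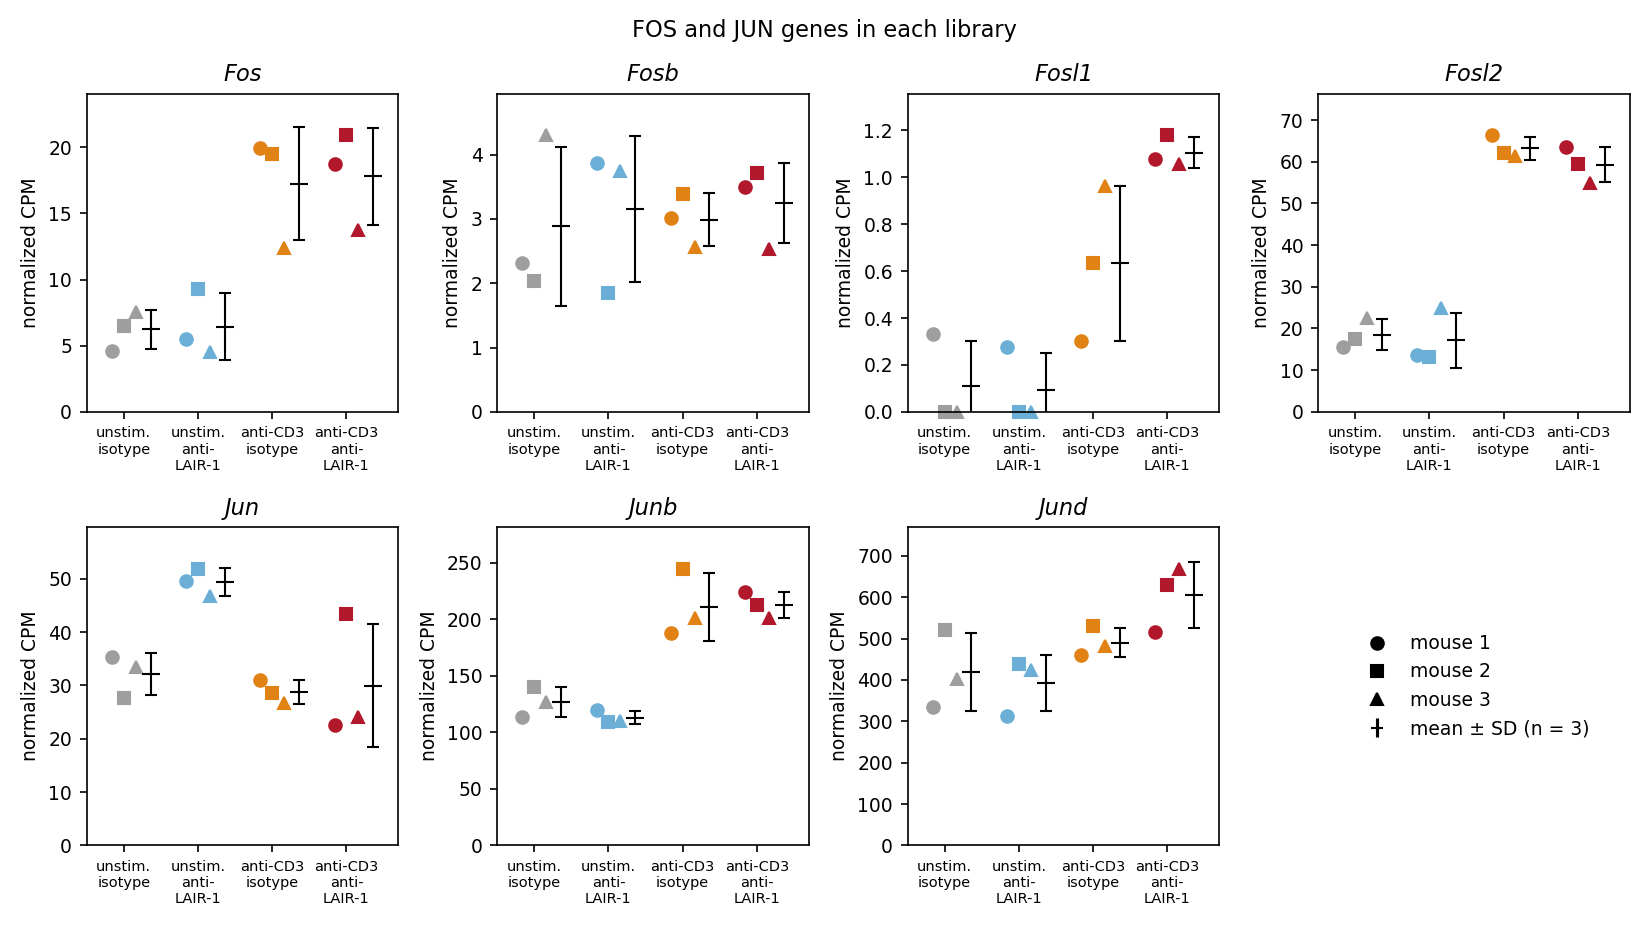
Normalised CPM of each member (vertical axis, linear, from 0, with its own scale per gene) in the 4 groups. Each point is 1 library and its shape gives the mouse, with the mean ± SD of 3 mice beside it. Fos, Fosl2 and Junb are higher in all 6 libraries with anti-CD3 than in the 6 without, Jun is highest in the 3 libraries with anti-LAIR-1 alone (46.8 to 51.9 CPM), and Fosb overlaps throughout.

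Fos encodes c-Fos, the prototype of an immediate early gene. It lies at chr12:85473890-85477273 on the plus strand and has 4 exons in GENCODE. Fos was at 4.63, 6.52 and 7.54 CPM in the unstimulated isotype libraries of mice 1, 2 and 3. In the anti-CD3 isotype libraries it was at 19.9, 19.5 and 12.4 CPM, so that the lowest stimulated library stood above the highest unstimulated one. With anti-LAIR-1 alone Fos was at 5.53, 9.27 and 4.54 CPM. With both antibodies it was at 18.7, 20.9 and 13.7 CPM, again without overlap with the unstimulated anti-LAIR-1 libraries. Mouse 3 gave the lowest value of both stimulated groups. Fos rose 2.77-fold with anti-CD3 over isotype, a log2 difference of 1.45 (SE 0.29, edgeR adjusted p = 1.2e-04, n = 3 per group). Under anti-LAIR-1 the rise was 2.76-fold, a log2 difference of 1.46 (SE 0.26, edgeR adjusted p = 4.3e-05). The difference between these log2 changes was -0.02 (SE 0.41), and anti-LAIR-1 itself gave 0.08 with anti-CD3 (95% interval -0.36 to 0.52). Fos rested on 14 to 35 reads in each unstimulated library and on 65 to 139 in each stimulated one.

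Fosl2 encodes Fra-2, a FOS protein that lacks the strong transactivation domain of c-Fos. It spans chr5:32135801-32157842 on the plus strand with 4 exons. The unstimulated isotype libraries had 15.5, 17.5 and 22.6 CPM of Fosl2 and the anti-CD3 isotype libraries 66.4, 62.0 and 61.3 CPM. Without anti-CD3, the anti-LAIR-1 libraries had 13.6, 13.2 and 24.8 CPM, and with it 63.5, 59.4 and 55.0 CPM. The 6 stimulated libraries therefore lay within a narrow band, far above the 6 unstimulated ones. Fosl2 showed the highest fold change of the tested members, by 3.41-fold with isotype (log2 1.76, SE 0.16, edgeR adjusted p = 1.2e-09) and by 3.44-fold under anti-LAIR-1 (log2 1.78, SE 0.18, edgeR adjusted p = 3.3e-08). It ranked 715 of 8690 genes from the highest log2 change with isotype, and 628 of 9000 under anti-LAIR-1. The effect of anti-LAIR-1 on Fosl2 with anti-CD3 was -0.09 on the log2 scale (95% interval -0.30 to 0.12, edgeR adjusted p = 0.696).

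Fosb and Fosl1 had few reads. Fosb encodes FosB, a close relative of c-Fos, and lies at chr7:19302696-19310051 on the minus strand. Its levels ran from 1.85 to 4.31 CPM in the 6 unstimulated libraries and from 2.54 to 3.71 CPM in the 6 stimulated ones, and the groups overlapped in every comparison. Between 5 and 26 reads were counted on Fosb in a library. With isotype, Fosb did not pass the filter on low counts, and the summed counts of 42 with and 20 without anti-CD3 gave a ratio of 1.08 after scaling (95% counting interval 0.620 to 1.94). Under anti-LAIR-1, where it was tested, the log2 difference was 0.06 (SE 0.38, edgeR adjusted p = 0.896).

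Fosl1, at chr19:5447547-5455946 on the plus strand, encodes Fra-1 and was near the limit of detection. It overlaps Ccdc85b on the opposite strand, and reads of the pair cannot be told apart without strand. A single read was counted in the unstimulated isotype group and a single one in the unstimulated anti-LAIR-1 group, both from mouse 1. With anti-CD3 there were 1, 3 and 6 reads with isotype (0.302, 0.635 and 0.963 CPM) and 8, 7 and 5 reads with anti-LAIR-1 (1.08, 1.18 and 1.06 CPM). The 3 libraries with both antibodies were above the 9 others. Fosl1 passed the filter in none of the comparisons. Its summed counts gave a ratio of 12.3 (95% counting interval 1.97 to 510) for anti-CD3 under anti-LAIR-1 and of 5.14 (0.732 to 223) with isotype. Between the stimulated groups the ratio was 1.58 (0.705 to 3.77), which includes no difference. Such intervals cover counting error only.

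Junb encodes JunB, which is a weaker activator than c-Jun at many sites. Its gene spans chr8:84974484-84978718 on the minus strand, and the coding transcript used has 1 exon. Junb was at 113, 140.2 and 126 CPM in the unstimulated isotype libraries and at 187, 245 and 201 CPM in the anti-CD3 isotype libraries. The values were 119.8, 109 and 109.8 CPM with anti-LAIR-1 alone and 224, 212 and 201 CPM with both antibodies. Every stimulated library was above every unstimulated one. Junb rose 1.67-fold with isotype (log2 0.71, SE 0.12, edgeR adjusted p = 9.4e-06) and 1.88-fold under anti-LAIR-1 (log2 0.91, SE 0.09, edgeR adjusted p = 1.5e-08). In mice 1, 2 and 3 the log2 differences were 0.72, 0.80 and 0.66 with isotype, and 0.90, 0.96 and 0.87 under anti-LAIR-1. The difference between the responses was 0.17 (SE 0.15, edgeR adjusted p = 0.718). The stimulated groups themselves differed by 0.00 (95% interval -0.19 to 0.19).

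Jund encodes JunD, the JUN protein that many resting cells already contain. Its gene spans chr8:70698949-70700616 on the plus strand, and the coding transcript used has 1 exon. Jund was at 334, 521 and 402 CPM in the unstimulated isotype libraries and at 314, 438 and 423 CPM in the unstimulated anti-LAIR-1 libraries. The anti-CD3 isotype libraries had 460.0, 530.2 and 481 CPM, and those with both antibodies 516, 630.5 and 669.6 CPM. Mouse 2 of the unstimulated isotype group stood above 2 of the 3 anti-CD3 isotype libraries, so that these groups overlapped. Under anti-LAIR-1 the groups did not overlap. There Jund rose 1.55-fold with anti-CD3 (log2 0.62, SE 0.11, edgeR adjusted p = 4.2e-05).

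With isotype, the log2 difference of Jund was 0.19 (95% interval -0.05 to 0.43, edgeR adjusted p = 0.142). This value turned on the model and on single libraries, and ran from 0.02 to 0.37 over all settings (edgeR adjusted p up to 0.895, with the upper quartile). With the mouse as a block it was 0.21 (edgeR adjusted p = 0.0469), and without the unstimulated isotype library of mouse 2 it was 0.37 (edgeR adjusted p = 0.00306). Without that of mouse 1 it was 0.05 (edgeR adjusted p = 0.708).

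In the presence of anti-CD3, no other tested member differed as much between anti-LAIR-1 and isotype as Jund. Its level was 1.23-fold higher with anti-LAIR-1, a log2 difference of 0.29 (SE 0.09, 95% interval 0.11 to 0.48), and it was higher in all 3 mice, by 0.17, 0.25 and 0.48. The edgeR p of 0.00387 became 0.0590 after adjustment over 8800 genes and so missed the threshold of 0.05. With the mouse as a block the difference was again 0.29 and passed (edgeR adjusted p = 0.0243). It passed with DESeq2 as well (adjusted p = 0.0457) but not with DESeq2 and the block, and in 4 of 11 other settings in all. With 1 library left out it passed in 1 of 6 fits, without the anti-CD3 anti-LAIR-1 library of mouse 1 (0.40, edgeR adjusted p = 0.00785). In the others it did not pass (edgeR adjusted p up to 0.231). The range over all settings was 0.21 to 0.40. Jund ranked 1450 of 8800 genes in this comparison. The summed naïve CD8+ T cell markers given above moved the same way between these groups, and their part in this value was not tested.

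Jun encodes c-Jun, a JUN protein that JNK kinases phosphorylate. Its gene spans chr4:95049034-95052222 on the minus strand, and the coding transcript used has 1 exon. Jun was at 35.3, 27.7 and 33.4 CPM in the unstimulated isotype libraries. With anti-LAIR-1 alone it was at 49.5, 51.9 and 46.8 CPM, and these 3 libraries were above all others. It was at 31.1, 28.6 and 26.7 CPM with anti-CD3 and isotype, and at 22.5, 43.3 and 24.1 CPM with both antibodies. Mouse 2 stood apart in that last group, well above the other mice. On the opposite strand, the gene span of Fosl1 overlaps Ccdc85b and that of Junb overlaps Prdx2. The spans of Jun and Jund overlap the antisense genes Junos and Gm11175, respectively. The use of strand in counting was not stated, so that reads of these pairs cannot be told apart.

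Without anti-CD3, Jun was 1.54-fold higher with anti-LAIR-1 than with isotype, a log2 difference of 0.61 (SE 0.15, 95% interval 0.30 to 0.93). The differences were 0.48, 0.89 and 0.48 in the 3 mice. Jun ranked 145 of 8770 genes by this difference, with an unadjusted edgeR p of 5.4e-04. After adjustment over all genes the edgeR p was 0.997, far from the threshold, and the lowest adjusted p of the other settings was 0.197. The log2 difference stayed between 0.52 and 0.70 over those settings, including the one with all libraries thinned to the smallest total.

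With anti-CD3 and isotype, Jun differed from the unstimulated level by -0.21 on the log2 scale (95% interval -0.55 to 0.14, edgeR adjusted p = 0.277). Upper quartile scaling gave -0.38 and passed (edgeR adjusted p = 0.0461), but that scaling also moved the median of all genes to -0.20. Under anti-LAIR-1, Jun fell with anti-CD3 by 0.73 on the log2 scale (SE 0.19, edgeR adjusted p = 0.00181), to 0.607 of its unstimulated level. It was the one member that fell. The differences were -1.12, -0.26 and -0.94 in mice 1, 2 and 3, and the value ran from -1.07 to -0.52 when 1 library was left out. The unstimulated anti-LAIR-1 libraries enter this comparison and the one in the preceding paragraph with opposite sign, so that the fall and the higher level share those libraries. The responses of Jun to anti-CD3 with and without anti-LAIR-1 differed by -0.55 (95% interval -1.10 to 0.00, edgeR adjusted p = 0.411). Without the anti-CD3 anti-LAIR-1 library of mouse 2 that difference was -0.92 (edgeR adjusted p = 0.0296).

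**Figure D2:**
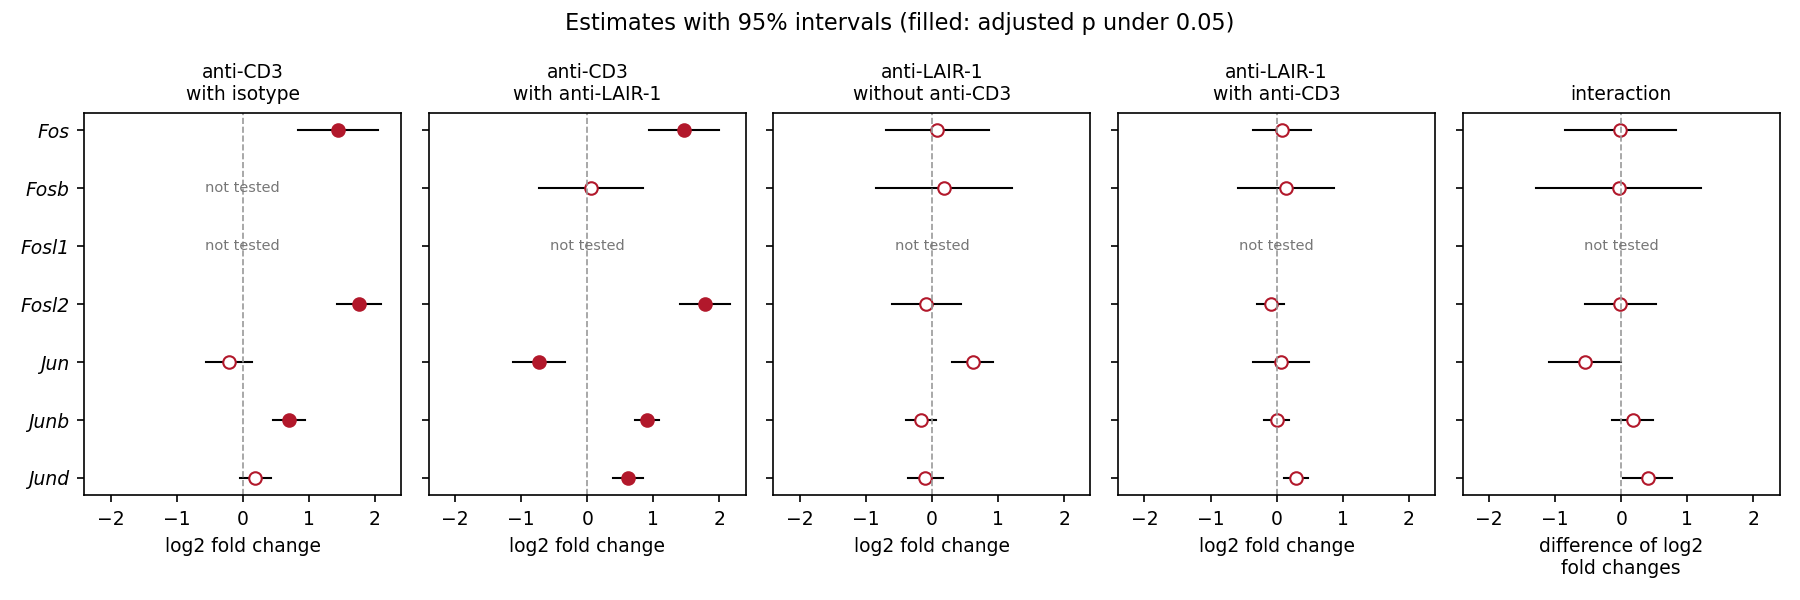
Log2 fold changes of the members (points) with 95% intervals (lines) in the 5 tests by edgeR, on 1 shared horizontal scale, where filled points passed the adjusted threshold of 0.05. The interaction is the anti-LAIR-1 difference with anti-CD3 minus that without. Fos, Fosl2 and Junb are filled in both anti-CD3 panels, Jun (-0.73) and Jund (0.62) are filled only with anti-CD3 under anti-LAIR-1, and no point is filled in the other 3 panels.

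Over the members as a group, anti-CD3 with isotype raised 3 of the 5 that were tested (Fos, Fosl2 and Junb) and lowered none. Of all 8690 genes tested there, 71.3% were called, 35.3% as higher and 36.1% as lower. Under anti-LAIR-1, anti-CD3 raised 4 of 6 (Fos, Fosl2, Junb and Jund) and lowered 1 (Jun). The share of all 9000 genes called was 72.7%, with 36.4% higher and 36.3% lower, so that 5 of 6 members is close to what these cells showed throughout. The median log2 change of the tested members was 0.71 with isotype and 0.76 under anti-LAIR-1, against -0.03 and -0.04 over all genes. Values of the groups did not overlap for 3 of 5 tested members with isotype, where this held for 73.5% of genes, and for 5 of 6 under anti-LAIR-1, where it held for 74.8%. The calls of Fos, Fosl2 and Junb in both comparisons and of Jun and Jund under anti-LAIR-1 held in 11 of 11 other settings and with each of 6 libraries left out.

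Anti-LAIR-1 changed none of the 6 tested members at the adjusted threshold in the presence of anti-CD3 (edgeR). At an unadjusted p below 0.05 there was 1, Jund, and DESeq2 called 1, Jund. Across all genes 5.76% were called, 3.9% as higher and 1.86% as lower. The groups overlapped for all 6, where 24% of genes did not overlap. Apart from Jund, the estimates lay between -0.09 (Fosl2) and 0.14 (Fosb, 95% interval -0.58 to 0.87). Without anti-CD3, edgeR and DESeq2 called 0 of the 6 members, with 1 (Jun) at an unadjusted edgeR p below 0.05, and 0% of all genes passed. There the groups did not overlap for 1 of 6 members, Jun, and for 9.66% of all genes. Apart from Jun, the estimates there lay between -0.17 (Junb, SE 0.11) and 0.18 (Fosb, SE 0.49). The test of whether the anti-LAIR-1 effect differed with and without anti-CD3 called 0 of 6 members in edgeR and 0 in DESeq2, with 1 (Jund) at an unadjusted p below 0.05, and 2.07% of all genes. For Jund that difference was 0.40 (95% interval 0.03 to 0.77, edgeR adjusted p = 0.355).

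The reads of the family were unevenly split. Jund took 68.8% ± 3.59 (SD, n = 3) of them in the unstimulated isotype libraries, 67.1% ± 4.48 with anti-LAIR-1 alone, 60.3% ± 0.862 with anti-CD3 and isotype, and 65.0% ± 4.25 with both antibodies. Junb followed with 19.7 to 25.8% on average per group. Fosl2 went from 3.10 to 7.81% with anti-CD3 and isotype and from 2.95 to 6.43% under anti-LAIR-1. Jun took 8.58% ± 1.10 with anti-LAIR-1 alone and 3.20 to 5.49% in the other groups. Fos made up 1.03 to 2.12% and Fosb and Fosl1 less than 1% each. These are shares of reads near the polyadenylated end, not of protein. Together the 7 members stood at 606 ± 105 CPM unstimulated, 581 ± 64.7 with anti-LAIR-1 alone, 814 ± 65.3 with anti-CD3 and 929 ± 68.9 with both (mean ± SD, n = 3).

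**Figure D3:**
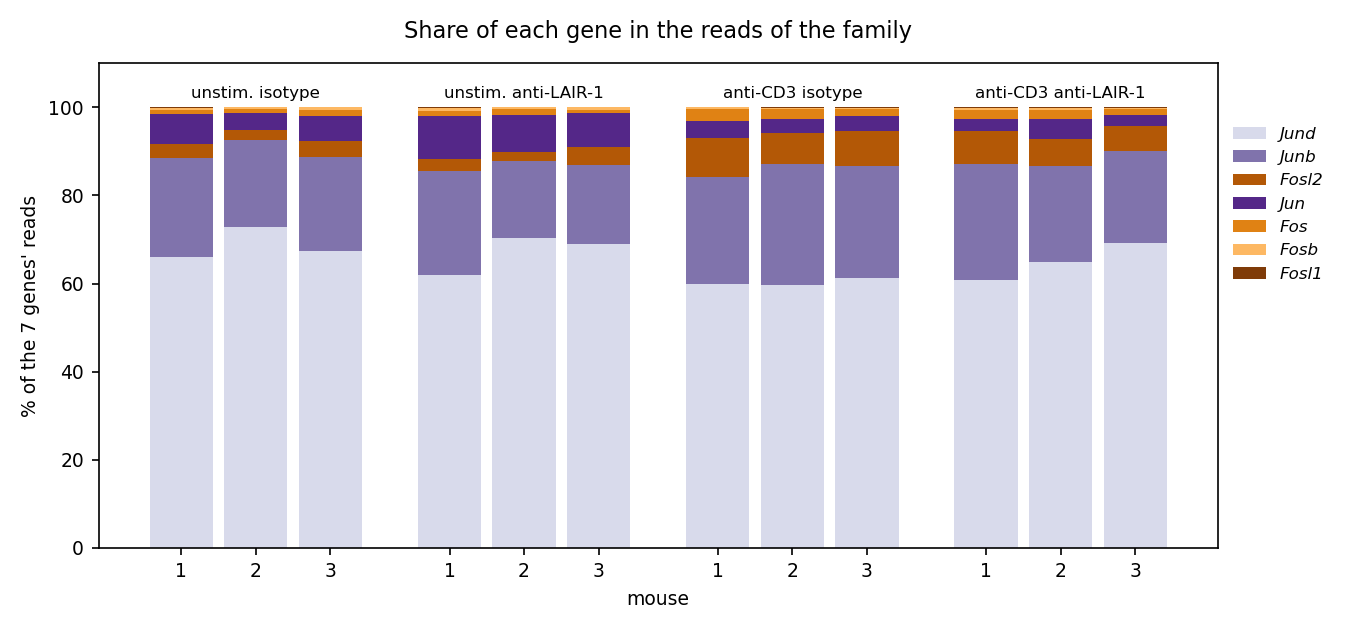
Percent of the reads of the 7 members that fell on each member, stacked for every library, with the mouse on the horizontal axis and the 4 groups side by side. Jund takes most of the reads in all 12 libraries, and the band of Fosl2 is wider in the libraries with anti-CD3.

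In 6 of the 7 members the RNA carries UAUUUAU in the 3′ UTR, a core of the AU-rich elements that proteins such as tristetraprolin bind to shorten the life of an RNA. In the coding transcripts taken from GENCODE on GRCm38, Fosl2 had 3 matches in 4653 bases of 3′ UTR, Fos had 2 in 815 bases, and Fosb, Fosl1, Jun and Jund had 1 each. Junb had none in its 485 bases. At least 1 match was present in 25.4% of 20690 genes, at least 2 in 9.24% and at least 3 in 3.55%, with a median 3′ UTR of 797 bases. One match is shown for each of 2 genes that rose and for Jun and Jund, with the core in capitals. They lie at chr12:85477103-85477132 (plus, Fos), chr5:32156202-32156231 (plus, Fosl2), chr4:95049078-95049107 (minus, Jun) and chr8:70700359-70700388 (plus, Jund).
Fos: uguuuucaauuUAUUUAUuaagauggauuc
Fosl2: aggcacuuuucUAUUUAUccucuuuuaaga
Jun: uugcuugugcaUAUUUAUaauagcguucgu
Jund: cgauuccgcccUAUUUAUguuucuacucgg
RNA decay was not measured. Fosl2 (3 matches), Fos (2) and Junb (none) were called higher with anti-CD3 in both comparisons. In the anti-LAIR-1 wells, anti-CD3 raised Jund (1 match) and lowered Jun (1 match). Any part of the matches in these changes was not tested.

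Among themselves, the members fell into similar and dissimilar profiles over the 12 libraries. In log2 CPM, Pearson's r was 0.93 between Fosl2 and Junb, 0.90 between Fos and Junb, and 0.87 between Fos and Fosl2. For Junb and Jund it was 0.74, and Jun had r of -0.68 with Junb and -0.62 with Fosl2. The 12 points share 4 conditions, 3 mice and the scaling of each library, and these values describe the profiles only. Over 9223 genes, the profile most like that of Fos was Nploc4 (r = 0.98), followed by Glipr1 and Il12rb1 (both 0.97). Fosl2 was most like Mthfd2, D8Ertd82e and Wdr74 (all 0.99), and Junb most like Hars, Cisd1 (both 0.99) and Seh1l (0.98). Jun had lower maxima, with Cul9 at 0.92 on only 2 to 17 reads per library, and Zfp451 and Neu1 at 0.90. Jund was most like mt-Tt, a mitochondrial tRNA gene with 6 to 50 reads (0.98), and then Lat and Rasal1 (both 0.89). Fosb was most like Prpsap2 (0.91), Tmem245 (0.86) and Ticam1 (0.85).

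Other bZIP proteins that can pair with FOS or JUN changed in both directions. With isotype, anti-CD3 raised 4 and lowered 2 of 6 tested genes (median log2 1.38), and under anti-LAIR-1 it raised 4 and lowered 1 of 7 (median 1.28). Atf3, a stress-induced partner of JUN proteins, rose by 3.58 (SE 0.41) and by 2.65 (SE 0.34), respectively. Without anti-CD3 it stood at only 1.87 ± 1.46 CPM with isotype and 1.61 ± 0.44 CPM with anti-LAIR-1, and was not tested between those groups. Atf3 thus passed the filter only through the stimulated libraries and had to differ, so that its rise is a description. It is among the 4 genes raised in each comparison and enters both medians. Mafg, a small MAF protein, rose by 1.83 with isotype and Maff by 1.74 under anti-LAIR-1. Batf, which pairs with JUN proteins in effector T cells, fell, at -1.61 (SE 0.35) with isotype and -0.78 (SE 0.26) under anti-LAIR-1, and Atf2 fell by 0.27 on the log2 scale with isotype. Atf3 was the gene of this list that anti-LAIR-1 changed in stimulated cells, 1 of 7. It was at 20.2 ± 5.82 CPM with isotype and 10.4 ± 1.79 CPM with anti-LAIR-1, a log2 difference of -1.01 (SE 0.22, edgeR adjusted p = 0.00862). Without the anti-CD3 isotype library of mouse 3 the adjusted p was 0.0612.

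Upstream of the family, genes of the MAP kinase cascades changed in both directions. Anti-CD3 raised 5 and lowered 6 of 16 genes with isotype (median -0.12) and raised 7 and lowered 7 of 17 under anti-LAIR-1 (median -0.22). Map2k3, a kinase of the p38 branch, rose by 3.94 (SE 0.10) and 3.65 (SE 0.09) on the log2 scale. Rasgrp1, which couples the receptor to Ras, fell, with log2 differences of -2.13 (SE 0.11) and -2.00 (SE 0.09), as did Mapk3, which encodes ERK1, with -3.28 (SE 0.26) and -2.60 (SE 0.20). Mapk8 (JNK1) rose by 0.64 with isotype. Rps6ka3 (RSK2), among the 7 raised under anti-LAIR-1, gave 1.34 there, from 1.44 ± 0.32 to 3.67 ± 0.26 CPM. It passed the filter neither between the unstimulated groups nor for anti-CD3 with isotype. Under anti-LAIR-1 it passed only through the stimulated libraries, so that this value is a description. Anti-LAIR-1 lowered 1 of 17 with anti-CD3. This was Map2k3, from 1372 ± 39.8 to 1142 ± 81.7 CPM (log2 -0.27, SE 0.07, edgeR adjusted p = 0.0229), and the call was lost when either of the anti-CD3 isotype libraries of mice 1 and 2 or either of the anti-CD3 anti-LAIR-1 libraries of mice 2 and 3 was left out (adjusted p up to 0.102).

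Of the factors known to act on FOS and JUN promoters, anti-CD3 raised 4 and lowered 3 of 11 with isotype (median 0.19) and raised 5 and lowered 3 of 12 under anti-LAIR-1 (median 0.30). Srf, which binds the CArG box, rose by 1.39 (SE 0.15) and 1.31 (SE 0.12). Its cofactor Mkl1 fell, with log2 differences of -2.79 (SE 0.13) and -2.30 (SE 0.11). Creb1, which binds the CRE, also fell, at -1.16 (SE 0.13) and -1.12 (SE 0.12), and its relative Atf1 rose by 0.97 (SE 0.15) and 0.86 (SE 0.12). Anti-LAIR-1 raised 1 of 12 in stimulated cells. This was Mkl1, which went from 20.6 ± 1.38 to 30.5 ± 3.54 CPM (log2 0.56, SE 0.14, edgeR adjusted p = 0.0277). The call held without 1 of the 6 libraries (anti-CD3 anti-LAIR-1, mouse 3) and was lost without any other (edgeR adjusted p up to 0.121). It was also lost in DESeq2 with and without the mouse as a block, and in edgeR when libraries were thinned (adjusted p up to 0.407).

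Genes for the turnover of FOS and JUN RNA or protein changed in both directions with anti-CD3. With isotype 6 of 11 rose and 3 fell (median 0.51), and under anti-LAIR-1 7 rose and 2 fell of 11 (median 0.53). Ndfip1, an adaptor of the ubiquitin ligase Itch, rose by 1.96 and 1.95 (SE 0.15 and 0.10), and Zfp36l1, a relative of tristetraprolin, by 1.68 and 1.67 (SE 0.11 and 0.09). Itch, whose product ubiquitinates c-Jun and JunB, fell, at -0.90 and -0.74 (SE 0.16 and 0.13). Zfp36l2, which encodes a protein that binds AU-rich elements, fell, at -1.81 and -1.37 (SE 0.10 and 0.08). With anti-CD3, anti-LAIR-1 raised 2 of 11. Zfp36 (tristetraprolin) went from 91.7 ± 8.41 to 125 ± 10.6 CPM (log2 0.45, SE 0.09, edgeR adjusted p = 0.00788). Zfp36l2 went from 74.4 ± 4.03 to 99.3 ± 2.63 CPM (log2 0.41, SE 0.09, edgeR adjusted p = 0.00847). The call of Zfp36 was lost without the anti-CD3 anti-LAIR-1 library of mouse 2 (adjusted p = 0.0652) and when libraries were thinned. That of Zfp36l2 was lost in DESeq2 with the mouse as a block (adjusted p = 0.0965).

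Of 14 T cell genes with known AP-1 sites in the table, 7 passed the filter on low counts with isotype, and of these 6 rose and 1 fell with anti-CD3. Under anti-LAIR-1, 6 rose and 2 fell of 8 tested. Il2, Ifng and Gzmb had 0 or 1 read in the unstimulated isotype group and passed the filter only through the stimulated libraries, so that they had to differ and the counts are given as a description. These genes are also controlled by many other factors. Ifng, the gene of interferon-γ, had no read in the unstimulated isotype group and was at least 93.8-fold higher with anti-CD3, and Il2, the gene of interleukin-2, at least 41.3-fold, both against a floor of 3 counts over the group. Under anti-LAIR-1 the ratios were 80.3 (95% counting interval 22.0 to 667) for Ifng, on 2 unstimulated reads, and 89.9 (15.9 to 3574) for Il2, on 1. Vim, the intermediate filament gene, fell, at -3.97 (SE 0.26) and -3.29 (SE 0.18), as did Plaur at -1.84 under anti-LAIR-1.

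This was the list with the most calls for anti-LAIR-1 in stimulated cells, with 4 lower and 0 higher of 9 tested and a median of -0.49, against 0.00 over all genes. Of all 8800 genes tested, 1.86% were called lower and 3.9% higher. The lists were chosen with earlier results of these data known, so that the lead of this list is a description only. Gzmb, the gene of the cytotoxic protease granzyme B, went from 41.4 ± 11.1 to 6.48 ± 1.78 CPM (log2 -2.65, SE 0.22, edgeR adjusted p = 1.6e-06). Ifng went from 38.4 ± 0.277 to 13.9 ± 3.72 CPM (log2 -1.44, SE 0.17, edgeR adjusted p = 4.1e-05). The other two, named after their values were seen, were Il2 (log2 -1.07) and Il2ra (-0.49). The 4 calls held in 11 of 11 other settings and without each of the 6 libraries. Of the FOS and JUN genes themselves none was lower in these same libraries at the adjusted threshold. AP-1 protein and its binding were not measured, and a link between the family and these genes was not tested.

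Other immediate early genes were mixed. With anti-CD3, 8 rose and 3 fell of 13 with isotype (median 0.55), and 8 rose and 4 fell of 13 under anti-LAIR-1 (median 0.95). Nr4a2, a nuclear receptor gene, rose by 4.72 and 4.51 (SE 0.19 and 0.17) and Myc by 3.94 and 3.68 (SE 0.12 and 0.10). Dusp1, a phosphatase gene of MAP kinases, fell, at -1.52 and -1.50 (SE 0.31 and 0.24), as did Klf6 at -2.81 and -2.42 (SE 0.11 and 0.08). With anti-CD3, Klf6 was the 1 gene of 13 changed by anti-LAIR-1, from 61.2 ± 7.04 to 84.0 ± 3.01 CPM (log2 0.44, SE 0.10, edgeR adjusted p = 0.0122). The call was lost without the anti-CD3 isotype library of mouse 2 (edgeR adjusted p = 0.0720). It was also lost in DESeq2 with the mouse as a block and in edgeR when libraries were thinned (adjusted p up to 0.114).

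Handling of cells can raise FOS and JUN genes together with heat shock genes, which were therefore listed beside them. Anti-CD3 raised 3 of 4 tested heat shock genes in both comparisons, where 35.3% (isotype) and 36.4% (anti-LAIR-1) of all genes were called higher. Hsph1 was at 2.29 (SE 0.12) and 2.10 (SE 0.08) and Hsp90aa1 at 2.25 (SE 0.08) and 2.08 (SE 0.08). Dnajb1 fell by 0.30 with isotype. Hspa1a (mean 1.5 and 1.33 reads) and Hspa1b (mean 8 and 7.33 reads) did not pass the filter in either comparison. Anti-LAIR-1 lowered 1 of 5 with anti-CD3, Hsp90aa1, by 0.33 (SE 0.07, edgeR adjusted p = 0.00782). The part of handling in the values of the family was not tested. Without anti-CD3, anti-LAIR-1 changed 0 genes of every list at the adjusted threshold in edgeR. At an unadjusted p below 0.05 the bZIP list held 1 gene, the promoter factors held 1, and the other lists held 0. DESeq2 called 0 genes there in all. The test of whether the anti-LAIR-1 effect differed with anti-CD3 called 0 of these genes in edgeR, with from 0 to 3 per list at an unadjusted p below 0.05, and DESeq2 called 1, in the turnover list.

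**Figure D4:**
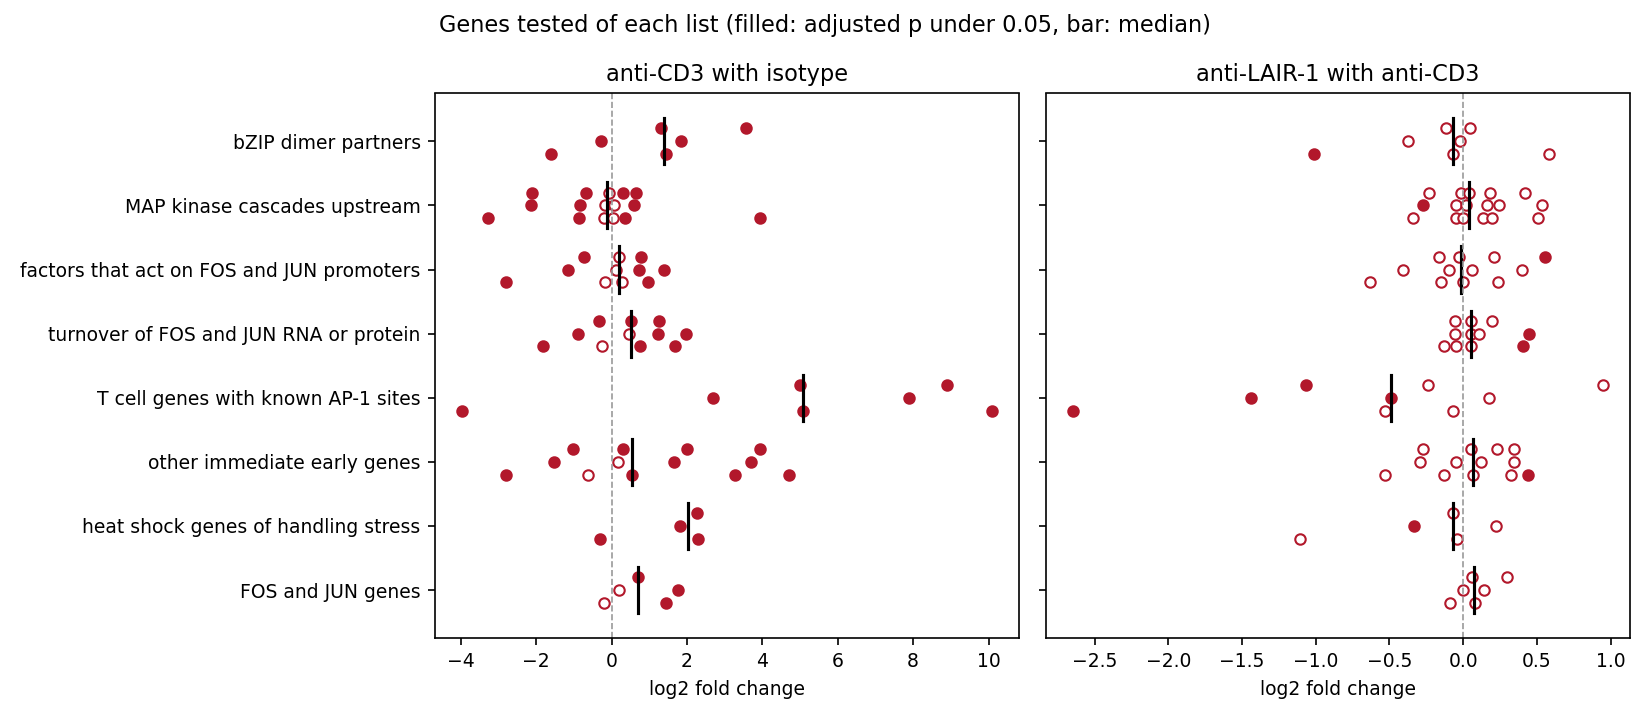
Log2 fold changes of the tested genes of each list, 1 point per gene, for anti-CD3 with isotype (left) and for anti-LAIR-1 with anti-CD3 (right, on a different horizontal scale), where filled points passed the adjusted threshold of 0.05 in edgeR and the bar is the median. The points of Il2 and Ifng on the left depend on the fit, since all unstimulated isotype libraries were at 0. Points lie far to both sides of 0 on the left. On the right the filled points of the AP-1 site list are all lower, and no FOS or JUN gene is filled.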

How the data were processed

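RNA of 12 wells of naïve CD8+ T cells, 1 per mouse and condition, was sequenced on a NextSeq 500 by CEL-seq in an adapted form. The authors aligned read 2 to the mouse mm10 transcriptome with BWA MEM (version not given in the sources used here), discarded reads that mapped equally well to several places, and deposited read counts per gene symbol, without normalization. Whether reads with 1 molecular identifier were collapsed, and whether counting used strand, is not given in the sources used here, so that intervals from counts cover counting error only. Totals ran from 1781218 to 7725545 counts per library, and no 2 replicates agreed within sampling noise (chi-square per degree of freedom 3.82 to 5.62).

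Groups were compared on the counts with edgeR 4.0.16 in R 4.3.3 (TMM, filterByExpr, quasi-likelihood F-test, Benjamini-Hochberg over all genes tested, threshold 0.05). Only the groups compared entered a fit, and all 12 libraries entered the interaction. Non-coding genes were kept. Log2 CPM for profiles used a prior count of 2. Standard errors come from the F statistic. With 3 against 3 libraries no exact permutation test can reach the threshold, so that none was used. Same-numbered libraries come from the same mouse. Deviations from the group means had a mean r of 0.0265 to 0.0891 within a mouse and of -0.0446 to -0.0133 between mice, and the fit with the mouse as a block is an alternative.

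The members and the 7 gene lists were chosen with earlier results of these data known. All members are named, and of each list up to 2 genes with the highest and 2 with the lowest log2 change among those called and moving the same way in 3 mice, and for each member with enough reads the 3 genes with the most similar profile. Batf2, Batf3, Csf2, Il4, Trbc2, Lyz2, Adgre1, Ncr1, Hbb-bs and Hba-a1 were not analysed here, and some other items of the lists are not reported here. Promoters and coordinates are from RefSeq (GRCm38.p6) and GENCODE M21 (GRCm38). Alternatives were DESeq2 1.42.0 with and without the block, edgeR with the size factors of DESeq2, with the upper quartile or with the block, no filter, at least 10 counts in every library, all 12 libraries in 1 fit, and each library left out. Chosen after seeing the data were scaling by library size only, thinning each library to the lowest total, and a table without Rn45s and the mitochondrial genes. The fits by edgeR, with the block and with library size only, and DESeq2 were tested on simulated data.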

Additional observations from a re-analysis of the deposited data

How the results depend on the processing

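The calls of Fos, Fosl2 and Junb for anti-CD3, and those of Jun and Jund for anti-CD3 under anti-LAIR-1, held in every setting. The number of members called for anti-LAIR-1 with anti-CD3 went from 0 to 1 (Jund) with the upper quartile, DESeq2, edgeR with the mouse as a replicate block and no filter on low counts, and was 0 to 1 with 1 library left out. For the interaction it was 0 to 1 with 1 library left out (Jun, without the anti-CD3 anti-LAIR-1 library of mouse 2). In edgeR, the block also called Jund for anti-CD3 with isotype and changed no other call of a member. In DESeq2, the block called Jund for anti-CD3 with isotype, whereas the call of Jund for anti-LAIR-1 with anti-CD3 was lost.

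Changes of sign concerned estimates near 0, none of them called. For anti-LAIR-1 with anti-CD3, Junb became -0.0064 with DESeq2 size factors, -0.0093 with DESeq2, -0.0027 with DESeq2 and the block, -0.082 on thinning and -0.0032 without mitochondrial genes and Rn45s. Jun became -0.012 with DESeq2 and the block and -0.23 on thinning, and Fosl2 became 0.045 on thinning. Without anti-CD3, Fos became -0.082 on thinning. For anti-CD3 under anti-LAIR-1, Fosb became -0.15 with the upper quartile and -0.052 with library size only. In the interaction, Fosl2 became 0.021 with DESeq2 and the block, 0.0079 with edgeR and the block and 0.13 on thinning, and Fos became 0.12 on thinning.

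With 1 library left out, the ranges that crossed 0 were, for anti-LAIR-1 with anti-CD3, Fos -0.15 to 0.22, Jun -0.31 to 0.25 and Junb -0.074 to 0.12. Without anti-CD3 they were Fos -0.27 to 0.28, Fosl2 -0.45 to 0.075 and Jund -0.24 to 0.092. Fosb for anti-CD3 under anti-LAIR-1 ran from -0.22 to 0.23. In the interaction, Fos ran from -0.23 to 0.34, Fosb from -0.38 to 0.13 and Fosl2 from -0.17 to 0.35.

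Over all genes, calls for anti-LAIR-1 with anti-CD3 went from 507 to 224 with DESeq2 and the block and to 310 on thinning, and to 293, 315 and 334 without the anti-CD3 isotype library of mouse 2 and the anti-CD3 anti-LAIR-1 libraries of mice 2 and 3. The higher share of them went from 67.7 to 79.8% with all 12 libraries in 1 fit. Without anti-CD3 they went from 0 to 5 with no filter, and for the interaction from 191 to 119 on thinning and to 103 at the lowest with 1 library left out. The upper quartile moved the median of the anti-CD3 comparisons to -0.20 and -0.24, and library size only moved it to -0.12 and -0.15. The cause of these shifts was not tested. Depth limits Fosl1 most. For anti-CD3 under anti-LAIR-1 its adjusted p was 0.0190 in edgeR with no filter, 0.0495 in DESeq2 and 0.0895 in DESeq2 with the block. These values set 20 reads with anti-CD3 against 1 without, below the filter of the reported fit, and are a description only.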
